A study of Mus musculus with 18 samples.

Results

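The ErbB family comprises the receptor tyrosine kinases encoded by Egfr, Erbb2, Erbb3 and Erbb4, and it was followed here as messenger RNA in mouse mammary gland and in mammary tumours driven by ErbB2. Members were found by gene name, older symbols allowed, on an Agilent oligonucleotide array. The 4 genes were read by 18 probes, 6 for Egfr, 3 for Erbb2, 5 for Erbb3 and 4 for Erbb4, out of 28919 genes or unnamed transcripts read by 41174 probes. The study took whole flash-frozen tissue from female mice of the inbred strain FVB/N and hybridised each RNA against a common reference RNA on a dye-swapped pair of arrays. The 9 RNA samples were 2 normal mammary glands, 2 pools of 5 tumours each that the labels call NIC, and 5 single tumours from mice with an ErbB2 knock-in genotype, called KI. The series title places the tumours in work on β-catenin, an adhesion and Wnt signalling protein, in ErbB2-driven progression. No other allele, agent or age is named, no promoter is given for either tumour kind, and NIC is given without a genotype. The name of normal gland 2 ends in the letters PI, which the name of the other gland lacks. The labels do not explain these letters, so whether both glands were in the same state is not known. Results below that change without normal gland 2 carry this limit. In mouse models driven by ErbB2 the introduced oncogene is often the rat gene neu. The labels do not name the species of the allele, so introduced and resident transcripts cannot be told apart in an Erbb2 value here.

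All ErbB receptors signal as pairs. Erbb2, which binds no known ligand of its own, is the favoured partner of the others, and Erbb3, whose kinase is impaired, carries many docking sites for the p85 subunit of phosphatidylinositol 3-kinase. Egfr binds EGF, TGF-α, amphiregulin and related ligands, while Erbb3 and Erbb4 bind neuregulins. In the mammary gland Egfr is needed in the stroma for ductal growth, and Erbb4 acts in the alveolar epithelium of pregnancy and lactation.

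Values are log2 ratios of sample over reference RNA, averaged over both arrays of an RNA, so a value of 0 is the level of the reference and each unit up is a doubling. Groups were tested with limma on these averages (two-sided moderated tests, adjusted by Benjamini-Hochberg across the 41174 probes), and a probe was called at an adjusted p under 0.05. Differences are given with limma's standard error (SE). Probes of a gene are reported one by one because they disagreed. The normal and NIC arrays share a deposited table and the KI arrays have their own on another platform record, so the KI group, the table and the platform cannot be told apart wherever KI is compared with the others. Among all probes, arrays of the same RNA correlated at r = 0.824 to 0.942 and KI tumours with each other at 0.704 to 0.886. The labels do not say whether samples of a group came from different litters, and the p-values cover the spread among the samples at hand and nothing wider.

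For orientation in the genome, the stretch of 250 bases before the start site is shown for Erbb2 and Egfr, whose brightest probes were called higher and lower, respectively, in KI tumours than in normal glands. Both sequences were taken from the RefSeq promoter table of mouse build GRCm38.p6, in which Egfr, Erbb2 and Erbb4 were matched and Erbb3, also called higher in KI, was not. The Erbb2 stretch lies on the + strand at chr11:98412234-98412483, and the Egfr stretch on the + strand at chr11:16751953-16752202. Capitals mark the letters AGGAAG on either strand, the core bound by ETS factors of the PEA3 group, which are known to act on ErbB2 promoters.
Erbb2: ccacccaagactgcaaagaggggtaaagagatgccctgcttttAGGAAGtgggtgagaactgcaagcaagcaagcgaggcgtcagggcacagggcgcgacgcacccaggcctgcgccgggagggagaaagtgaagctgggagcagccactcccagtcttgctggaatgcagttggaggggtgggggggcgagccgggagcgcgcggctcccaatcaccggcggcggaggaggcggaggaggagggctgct
Egfr: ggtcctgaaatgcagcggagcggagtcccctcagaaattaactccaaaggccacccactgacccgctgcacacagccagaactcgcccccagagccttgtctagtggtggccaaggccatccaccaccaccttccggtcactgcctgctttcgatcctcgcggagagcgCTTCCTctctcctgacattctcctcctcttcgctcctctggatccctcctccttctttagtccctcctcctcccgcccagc
The Erbb2 stretch held 1 such match on its own strand, beginning at base −207 from the start, and a further match began at base 3 after the start, outside the bases shown. The Egfr stretch held 1 match on the opposite strand with its leftmost base at −81. Over all 32851 promoters of the table, 29.5% held at least 1 match in the same window, so a match of this kind is common. The same window of Erbb4, at chr1:69108060-69108309 on the minus strand, held 0. These matches are descriptions of letters, and binding was not measured.

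Of the 18 member probes, 4 were called higher and 0 lower in NIC pools than in normal glands, where 9.82% of all probes were called higher and 8.62% lower. Without the adjustment, 8 of the 18 had a p under 0.05, as did 39.1% of all probes. All 4 called probes belonged to Erbb2 and Erbb3. In KI tumours against normal glands, 4 member probes were called higher, 3 of Erbb2 and 1 of Erbb3, beside 20.1% of all probes. Another 4 were called lower, 2 of Egfr and 1 each of Erbb3 and Erbb4, beside 22.2% of all probes. Between the tumour kinds, 0 member probes were called higher in KI and 7 were called lower, 2 of Egfr, 3 of Erbb3 and 2 of Erbb4, beside 3.02% and 3.97% of all probes. Without the adjustment, 11 of the 18 had a p under 0.05 there, as did 23.1% of all probes. The count of 7 became 2 without NIC pool 1, 4 without NIC pool 2, 3 or 4 without any 1 KI tumour and 5 without either gland. Every KI tumour lay below both NIC pools on 12 of the 18, all 5 of Erbb3, all 4 of Erbb4 and 3 of Egfr, where 15.8% of all probes did. Every KI tumour lay above both pools on 1, the Erbb2 probe U71126, where 16.1% did. The median difference of the 18 probes was 0.40 in NIC against normal, 0.02 in KI against normal and −0.31 in KI against NIC, and over all probes it was −0.02, 0.01 and 0.0001. Both comparisons with normal glands share those 2 glands. The NIC test took its spread from 4 RNA samples and the KI tests from all 9, so their call counts are not on a like footing. With all 9 fitted, NIC calls over all probes rose from 7594 to 15060. The counts of the gene lists below share this limit. The call counts for NIC against normal rest on few samples, and leaving out either NIC pool left 0 member probes called, as it left 0 of all 41174.

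**Figure D1:**
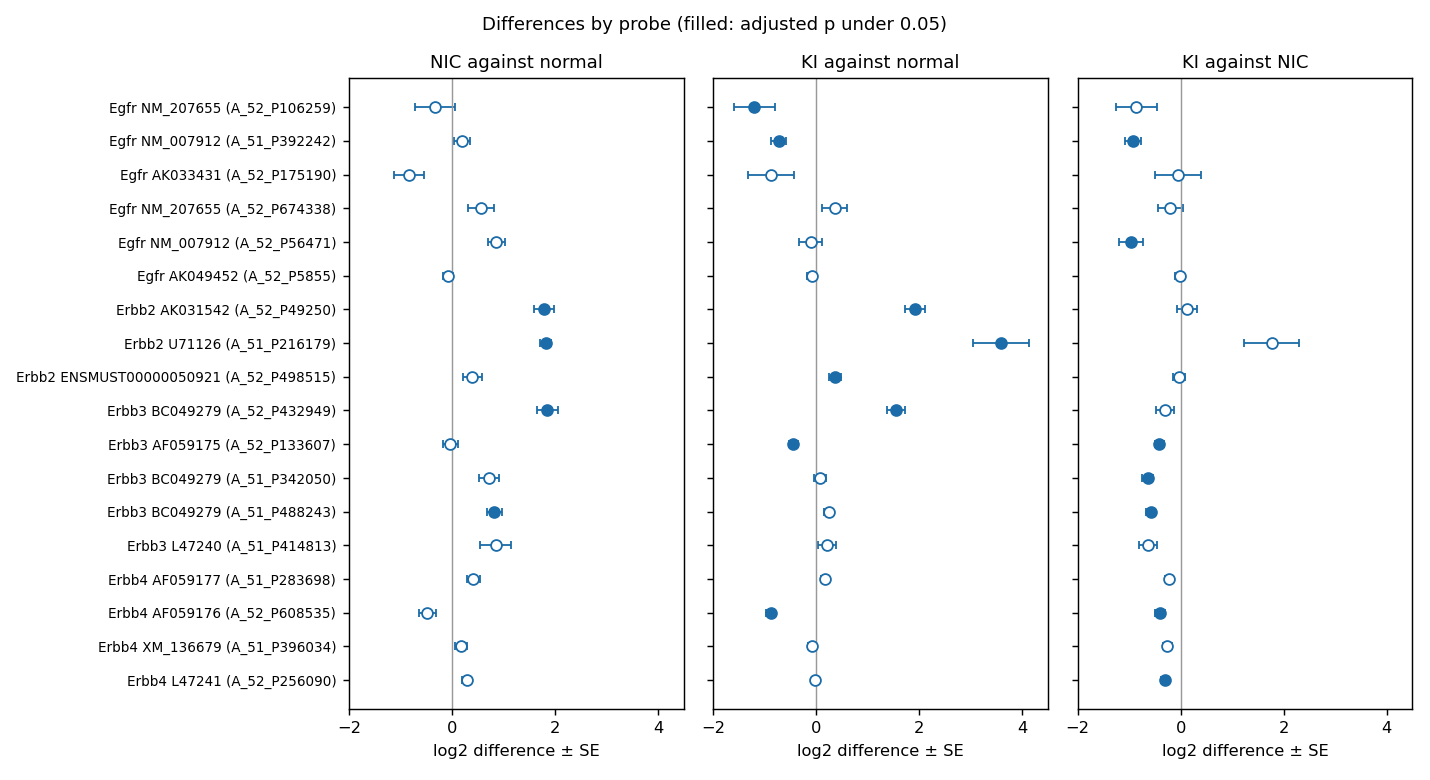
Log2 difference for each of the 18 member probes in the 3 comparisons, with limma's SE as bars and probes called at an adjusted p under 0.05 filled. The Erbb2 probes AK031542 and U71126 and the brightest Erbb3 probe stand to the right against normal glands, while in KI against NIC all filled points lie left of 0.

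Erbb2, the driver gene of the models, was higher in both tumour kinds than in normal gland on 2 of its 3 probes in NIC and on all 3 in KI. The probe designed on the transcript AK031542 (A_52_P49250), the brightest of the gene, read −1.08 and −1.29 in the normal glands. It read 0.39 and 0.81 in the NIC pools, and 0.83, 0.70, 1.01, 0.81 and 0.30 in KI tumours 1 to 5. Every tumour RNA lay above both glands. The difference was 1.79 ± 0.20 (SE), or 3.45-fold, in NIC against normal (adjusted p = 0.0211) and 1.91 ± 0.20, or 3.77-fold, in KI against normal (adjusted p = 5.1e-04). In NIC the difference ran from 1.58 to 2.00 when any 1 of the 4 RNA samples was left out, and the call was lost each time. For either NIC pool this loss was not particular to Erbb2, as described above. In KI, from the larger fit of all 9 RNA samples, the call held under all 21 alternatives. NIC and KI overlapped on this probe, with a difference of 0.13 (95% interval −0.33 to 0.59).

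The Erbb2 probe U71126 (A_51_P216179) set the tumour kinds further apart. Normal glands lay at −0.06 and −0.07 and NIC pools at 1.82 and 1.68. The KI tumours read 2.04, 3.41, 4.22, 3.88 and 4.02, so tumour 1 lay near the NIC pools and the other 4 lay higher. Against normal glands the difference was 1.82 ± 0.10, or 3.52-fold, in NIC (adjusted p = 0.0106), and 3.58 ± 0.54, or 12.0-fold, in KI (adjusted p = 0.00208). All 5 KI tumours lay above both NIC pools, by a mean of 1.76 ± 0.54, which missed the threshold (adjusted p = 0.100, 95% interval 0.50 to 3.03). Without KI tumour 1 the difference was 2.13 and called (adjusted p = 0.00799), and with the KI arrays rebuilt from scanner intensities it was 0.97 (adjusted p = 0.287). The reading of this probe differed with the dye. In KI every tumour read higher with the sample in Cy5, by 0.73 to 1.66, while both NIC pools read lower that way, by 0.90 and 0.28. With the samples in Cy5 alone KI exceeded NIC by 2.67 (adjusted p = 0.0468), and with Cy3 alone by 0.86 (adjusted p = 0.303). Tumour 1 was the lowest KI tumour in both orientations, at 2.58 and 1.50. The reference channel of this probe was not constant on the KI arrays. It ran from 163 to 1409, in each orientation lowest beside tumour 1 and highest beside tumour 3, while the tumour channel ran from 732 to 13760. For the AK031542 probe the reference ran from 1518 to 2000. The part of the uneven reference in the U71126 ratios was not tested.

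The remaining Erbb2 probe, ENSMUST00000050921 (A_52_P498515), moved little. Its values ran from −0.34 to 0.09 in normal glands, 0.22 to 0.31 in NIC and 0.12 to 0.34 in KI. The KI difference of 0.36 ± 0.12 passed the threshold (adjusted p = 0.0461) but lost the call under 14 of 19 alternatives, and the NIC difference of 0.39 ± 0.19 did not pass (adjusted p = 0.221). On the KI arrays this probe had a median processed signal of 1217 in the tumour channel and 1083 in the reference channel.

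**Figure D2:**
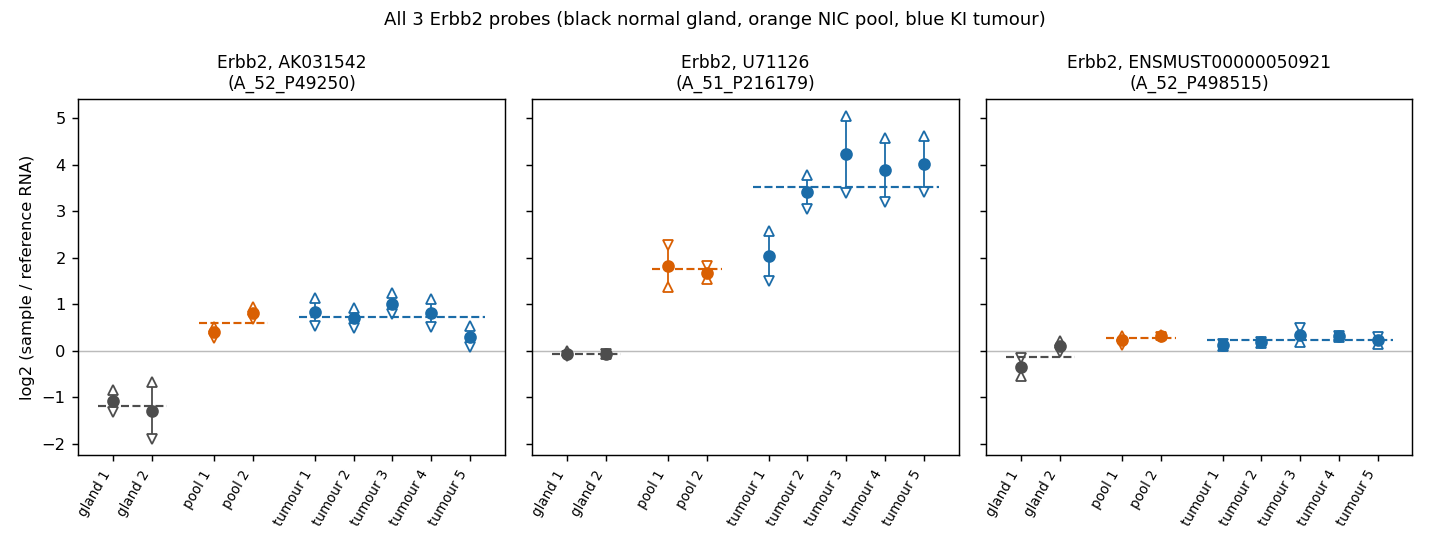
Log2 ratio of sample over reference for each Erbb2 probe in all 9 RNA samples. Circles are means of both arrays of an RNA, upward triangles the array with the sample in Cy5, downward triangles the array with the sample in Cy3, and dashed lines group means. On U71126 the KI tumours reach 4.22 and the dye orientations part, and on ENSMUST00000050921 the groups lie close together.

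Erbb3, the partner that links Erbb2 to phosphatidylinositol 3-kinase, was higher in both tumour kinds on its brightest probe, A_52_P432949, designed on BC049279. The normal glands read 1.54 and 2.02, and the NIC pools 3.56 and 3.69. KI tumours 1 to 5 read 2.99, 3.54, 3.33, 3.28 and 3.47. No tumour RNA fell within the range of the glands, and the 5 tumours lay within 0.54 of one another. The difference was 1.85 ± 0.21, or 3.61-fold, in NIC against normal (adjusted p = 0.0213) and 1.55 ± 0.17, or 2.92-fold, in KI against normal (adjusted p = 7.2e-04). The NIC call was lost without NIC pool 1 (adjusted p = 0.127) and without NIC pool 2 (adjusted p = 0.120). KI lay below both NIC pools by a mean of 0.30 (difference −0.30 ± 0.17, adjusted p = 0.356, 95% interval −0.71 to 0.10).

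The other 4 Erbb3 probes did not follow the brightest one. In KI against normal their differences ran from −0.45 to 0.24, and AF059175 (A_52_P133607) was called lower at −0.45 ± 0.09 (adjusted p = 0.00581). In NIC against normal they ran from −0.03 to 0.85, and the BC049279 probe A_51_P488243 was called higher at 0.82 ± 0.14 (adjusted p = 0.0396). This call was lost under 6 of 10 alternatives, with each dye alone and with any 1 of the 4 RNA samples left out (adjusted p from 0.055 to 0.195). That probe read −0.19 and −0.01 in the glands, 0.83 and 0.62 in the NIC pools and 0.05 to 0.21 in the KI tumours. It was thus raised in the NIC pools and near the glands in KI, with KI below NIC by 0.59 (difference −0.59 ± 0.09, adjusted p = 0.0115). A_51_P342050, on the same transcript, and AF059175 were called lower in KI than in NIC as well, at −0.64 ± 0.12 (adjusted p = 0.0212) and −0.42 ± 0.09 (adjusted p = 0.0342), calls lost under 5 and 8 of 18 alternatives. The fifth, L47240, showed a difference of −0.64 ± 0.18 that was not called (adjusted p = 0.0794). The 4 fainter probes had median tumour-channel signals of 86.9 to 299 on the KI arrays, and L47240 was well above background in the reference channel on 5 of the 10 KI arrays. The part of signal strength in their differences was not tested.

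**Figure D3:**
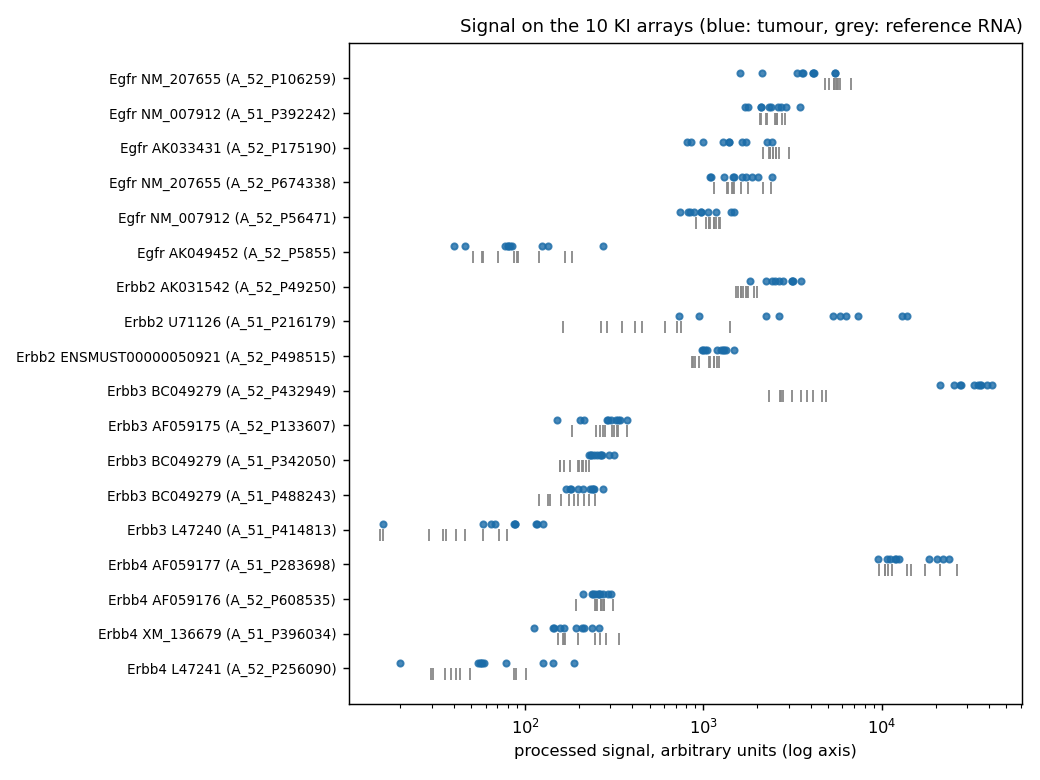
Processed signal of the 18 member probes on the 10 KI arrays, on a log axis, with the tumour channel as blue points and the reference channel as grey ticks. The brightest Erbb3 probe lies far above its reference in every array, and the fainter Erbb3 and Erbb4 probes lie among or next to their reference ticks.

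Egfr, the receptor for EGF and TGF-α, was lower in KI tumours than in normal glands on 2 of its 6 probes, and no probe of it was called in NIC against normal. On the brightest probe, A_52_P106259 of NM_207655, the normal glands differed widely from each other at 0.08 and 1.06. The NIC pools read 0.36 and 0.11, within that span. KI tumours 1 to 5 read −1.46, −0.64, 0.003, −0.39 and −0.68, all below both glands and both pools. The KI difference from normal was −1.20 ± 0.40, a 2.30-fold lower level (adjusted p = 0.0438), and it lost the call under 12 of 21 alternatives. Without normal gland 2 it was −0.71 (adjusted p = 0.301). Tumours 1 and 3 differed 2.75-fold on this probe, with an SD over the 5 tumours of 0.53 against 0.11 between dye partners, so the spread among tumours was wider than that between arrays.

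A second Egfr probe, A_51_P392242 of NM_007912, gave a tighter picture. The glands read 0.66 and 0.72 and the NIC pools 0.71 and 1.06. The KI tumours read −0.14, −0.09, 0.29, −0.05 and −0.21. None of them reached a gland or a pool. The KI difference was −0.73 ± 0.15 from normal (adjusted p = 0.00688) and −0.93 ± 0.15 from NIC (adjusted p = 0.0146), each called under 18 of 19 alternatives. A_52_P56471, on the same transcript, was also lower in KI than in NIC, at −0.97 ± 0.23 (adjusted p = 0.0488), and this call was lost under 12 of 19 alternatives. Against normal it read −0.11 ± 0.23 in KI and 0.86 ± 0.17 in NIC (adjusted p = 0.051).

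The remaining 3 Egfr probes were called in no comparison. AK033431 read −0.83 ± 0.29 in NIC and −0.88 ± 0.45 in KI against normal. A_52_P674338, also of NM_207655, read 0.56 ± 0.25 and 0.36 ± 0.24, opposite in sign to the brightest probe of that transcript. AK049452 stayed within 0.09 of 0 in all 3 comparisons at a median tumour-channel signal of 81.0. On the 5 Egfr probes other than AK049452, tumour 3 was the highest KI tumour. It was also among the 3 KI tumours with high basal epithelial markers, whose median was 0.09, 0.28, 1.62, 1.42 and 1.84 in tumours 1 to 5. Tumour 5, with the highest basal median, read −0.68 on the brightest Egfr probe and was lowest on A_51_P392242, at −0.21. Of the KI tumours, tumour 3 had the highest fibroblast (0.51 in a range from −1.53), adipocyte (0.76) and leukocyte (−0.51) medians. Its peripheral nerve median was the lowest (0.68), and its luminal and endothelial medians were in between. The part of these cell types in the Egfr values was not tested.

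**Figure D4:**
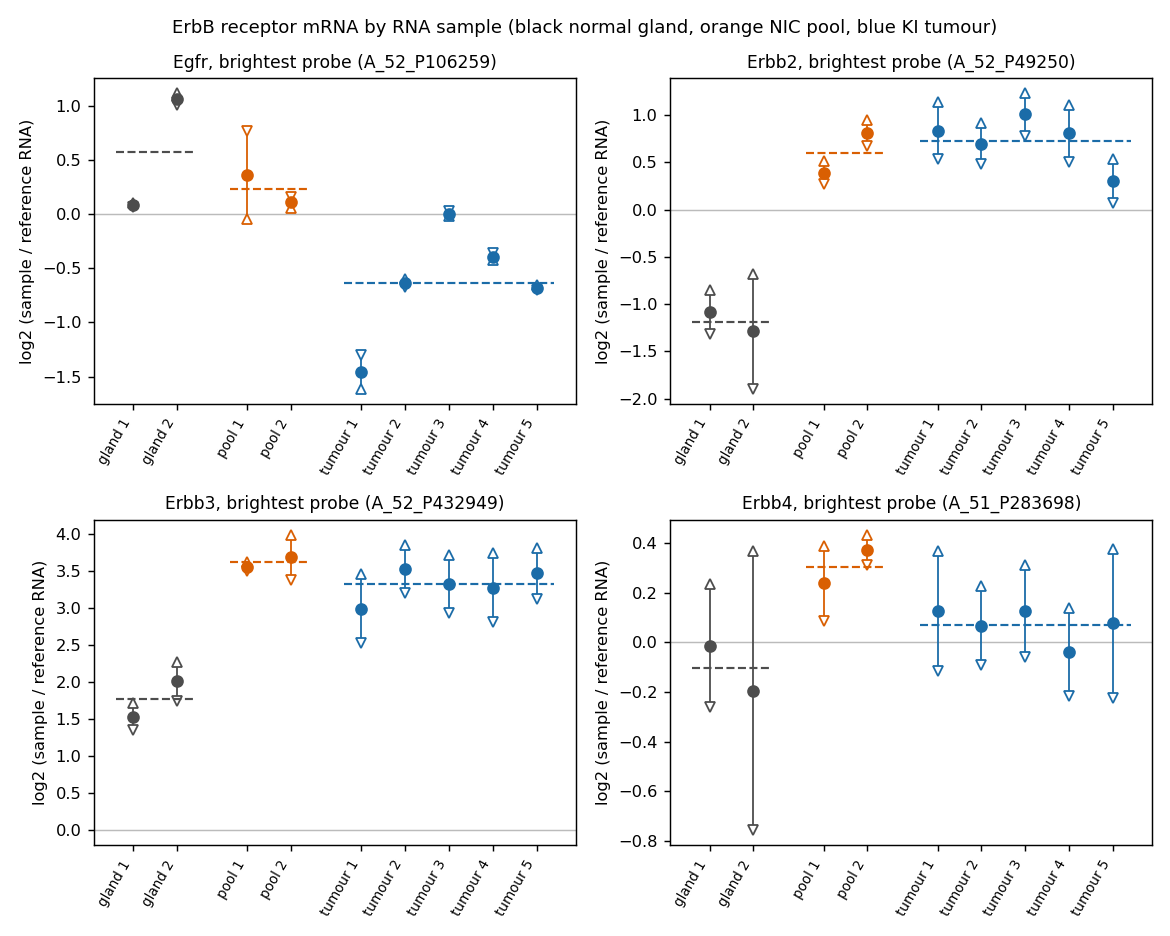
Log2 ratio of sample over reference for the brightest probe of each receptor in all 9 RNA samples. Circles are means of both arrays of an RNA, upward and downward triangles the arrays with the sample in Cy5 and Cy3, and dashed lines group means. Erbb2 and Erbb3 are higher in every tumour RNA than in both glands, Egfr is lower in every KI tumour, and the Erbb4 averages run from −0.19 to 0.37.

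Erbb4, the neuregulin receptor of lactating epithelium, was called on 1 probe of 4 in KI against normal, on 2 in KI against NIC and on none in NIC against normal. Its brightest probe, AF059177 (A_51_P283698), read −0.01 and −0.19 in normal glands and 0.24 and 0.37 in NIC pools, while the KI tumours ran from −0.04 to 0.13. The differences from normal were 0.41 ± 0.12 in NIC (adjusted p = 0.105) and 0.18 ± 0.08 in KI (adjusted p = 0.115), and KI differed from NIC by −0.23 ± 0.08 (adjusted p = 0.129). None was called. In KI every tumour read higher with the sample in Cy5, by 0.32 to 0.60. The SD between dye partners, 0.31, includes this shared offset, and the averages of the pairs had an SD of 0.07 between tumours. The probe AF059176 (A_52_P608535) read 0.94 and 0.78 in the glands, 0.54 and 0.21 in the NIC pools and −0.07 to −0.01 in the KI tumours, so the groups followed one another without overlap. KI was lower than normal by 0.89 (difference −0.89 ± 0.09, adjusted p = 5.7e-04, called under all 18 alternatives) and lower than NIC (difference −0.40 ± 0.09, adjusted p = 0.0473, lost under 13 of 18 alternatives). Its median signals on the KI arrays were 257 for tumour and 265 for reference. L47241 (A_52_P256090), well above background in the reference channel on 7 of 10 KI arrays, was called lower in KI than in NIC at −0.31 ± 0.07 (adjusted p = 0.0352). Of 18 alternatives this call was lost under 9, among them the omission of either NIC pool or of KI tumours 1, 2, 3 or 4, and the sign turned under 1. The probe XM_136679 was called in no comparison. The 4 Erbb4 probes differed in direction against normal, from −0.48 to 0.41 in NIC and from −0.89 to 0.18 in KI.

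Whole tissue was measured, so fewer cells of a type and less RNA per cell cannot be told apart. Like the brightest probes of Erbb2 and Erbb3, most luminal epithelial markers were higher in tumours. In both comparisons with normal, 5 of 7 were called higher, among them the keratins Krt8 (2.31 in NIC, 2.15 in KI) and Krt18 (1.74 and 1.66) and the adhesion molecule Epcam (3.87 and 3.37). Another keratin of the list, Krt19, differed from normal by −2.24 in NIC and 0.95 in KI, neither called, and was higher in KI than in NIC by 3.19 (adjusted p = 0.0306). The median of the 7 was 0.46 to 0.53 in normal glands, 2.22 to 2.68 in NIC pools and 1.74 to 2.51 in KI tumours. Adipocyte markers moved the other way, with medians of 2.84 to 3.73 in glands, 0.02 to 0.68 in NIC and −0.01 to 0.76 in KI, and 4 of 6 called lower in both. Fibroblast medians were 1.73 to 1.94 in glands, −1.76 to −0.49 in NIC and −1.53 to 0.51 in KI, with 3 and 4 of 6 called lower. Endothelial medians were 3.37 to 3.42 in glands, 0.24 to 0.94 in NIC and 0.73 to 2.25 in KI, with 4 and 2 of 6 called lower. Leukocyte medians were −0.17 to 0.57 in glands, −1.57 to −1.09 in NIC and −1.92 to −0.51 in KI, with 4 and 2 of 7 called lower. The basal list had 3 of 6 called lower in NIC, and 1 higher and 3 lower in KI. Peripheral nerve markers, a source of Erbb3 in Schwann cells, had medians of 0.46 to 0.51 in glands, 1.47 to 1.62 in NIC and 0.68 to 1.29 in KI. Beside these marker counts, 9.82% of all probes were called higher and 8.62% lower in NIC, and 20.1% and 22.2% in KI. The part of the tissue makeup in the receptor differences was not tested. These lists, like those of the pathway genes, were drawn up with earlier results of the same data known.

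Among EGF family ligands, 10 genes of the list were measured. In NIC against normal 2 were called higher and 3 lower, and in KI 2 were higher and 2 lower, with list medians of −0.34 and −0.18. Over all probes, 9.82% were called higher and 8.62% lower in NIC, and 20.1% and 22.2% in KI. The KI ligand counts lie near those shares. Amphiregulin (Areg), the Egfr ligand of ductal growth, was lower in NIC pools, with a mean of −2.12 against 2.43 in glands (difference −4.55 ± 0.14, adjusted p = 0.00936). In KI it differed from normal by −0.93 ± 1.18, not called (adjusted p = 0.566). Egf itself was higher in NIC, at 3.31 against 0.24 (difference 3.07 ± 0.15, adjusted p = 0.00945). It stood at −0.04 in KI, lower than NIC by 3.35 (difference −3.35 ± 0.35, adjusted p = 0.00383). Tgfa, another Egfr ligand, was higher in both, at 2.37 ± 0.11 in NIC (adjusted p = 0.00936) and 2.23 ± 0.45 in KI (adjusted p = 0.00696), though its other probe read −0.28 and −0.06. Heparin-binding EGF (Hbegf), which binds Egfr and Erbb4, was higher in KI by 3.96 ± 0.64 (adjusted p = 0.00282). In NIC its difference from normal was 1.60 ± 0.31, just short of the threshold (adjusted p = 0.0503). The Erbb4 ligand Nrg4 was lower in NIC (difference −1.10 ± 0.10, adjusted p = 0.0159) and in KI (difference −1.23 ± 0.08, adjusted p = 7.9e-05). Nrg3, also an Erbb4 ligand, was lower in KI by a small amount (difference −0.29 ± 0.06, adjusted p = 0.00781), and its other probe read 0.02. In NIC the Nrg3 difference was −0.29 ± 0.10, not called (adjusted p = 0.130). Between the tumour kinds Egf was the only ligand called, where 3.02% of all probes were called higher and 3.97% lower in KI.

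Of 6 genes for ligand shedding and receptor partners, 2 were called higher in NIC and 5 in KI against normal, with medians of 1.47 and 1.85. Over all probes, 9.82% were called higher in NIC and 20.1% in KI, with medians of −0.02 and 0.01. The counts of the list come from unlike fits, 4 RNA samples for NIC and 9 for KI, and do not compare the tumour kinds. Among the alternatives the number called reached 5 in NIC and 6 in KI. The rhomboid-like proteins Rhbdf1 and Rhbdf2 guide the sheddase ADAM17 to the cell surface. Rhbdf2 was higher by 2.67 ± 0.12 in NIC (adjusted p = 0.00936) and by 2.77 ± 0.21 in KI (adjusted p = 1.9e-04), and Rhbdf1 by 1.56 ± 0.12 (adjusted p = 0.0138) and 1.43 ± 0.13 (adjusted p = 3.3e-04). The sheddases Adam17 (1.87 ± 0.36) and Adam10 (1.83 ± 0.40) were called higher in KI. In NIC they read 1.52 ± 0.61 (adjusted p = 0.166) and 1.37 ± 0.66 (adjusted p = 0.222), neither called. Both KI calls held under all 21 alternatives, but the size of the difference rested on the glands. It was 1.15 for Adam17 and 0.98 for Adam10 without normal gland 2, and 2.59 and 2.69 without normal gland 1.

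Among 10 adaptors and proximal effectors, 1 was called higher in NIC and 4 in KI against normal, beside 9.82% and 20.1% of all probes. The fits were again unlike, and among the alternatives the number called reached 5 in NIC and 6 in KI. The adaptor Grb7 binds phosphorylated Erbb2 and its gene neighbours Erbb2. It was higher than normal by 2.02 ± 0.26 in NIC (adjusted p = 0.0264) and by 3.33 ± 0.24 in KI (adjusted p = 1.5e-04), and higher in KI than in NIC by 1.31 ± 0.24 (adjusted p = 0.0221), with calls lost in NIC under 4 of 13 alternatives and between the tumour kinds under 4 of 21. The adaptor Shc1 (1.29 ± 0.18), the Ras exchange factor Sos1 (1.04 ± 0.25) and the kinase Src (0.62 ± 0.14) were called higher in KI, and the other Sos1 probe read −0.40. In NIC these genes read 0.91, 0.75 and 0.44, none called. The Sos1 call was lost without normal gland 2 (0.54, adjusted p = 0.0659), with arrays scaled to 1 spread (0.063, adjusted p = 0.838), with quantile normalization (0.22) and as the mean of its probes (0.32). The Src call was lost without normal gland 2 and with Cy3 alone (adjusted p = 0.0608 in both). Pik3r1, the p85 subunit that docks on Erbb3, was lower in KI than in NIC (difference −1.12 ± 0.15, adjusted p = 0.00881), and its other 3 probes read −1.10 to −0.83.

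Among 12 genes that restrain or turn over the receptors, 2 were called higher and 1 lower in NIC, and 6 higher and 1 lower in KI. The shares of all probes were 9.82% higher and 8.62% lower in NIC, and 20.1% and 22.2% in KI. Here too the NIC and KI fits were unlike, so their counts do not compare the tumour kinds. Errfi1, which encodes an inhibitor of ErbB kinases, was higher by 1.70 ± 0.30 in NIC (adjusted p = 0.0432) and by 2.22 ± 0.32 in KI (adjusted p = 0.00182). The NIC call was lost under 7 of 13 alternatives, among them the omission of any 1 of the 4 RNA samples. The KI call, from the larger fit, held under all 21. The ubiquitin ligase Cblb was lower in NIC (difference −0.91 ± 0.10, adjusted p = 0.0218) and in KI (difference −0.94 ± 0.12, adjusted p = 9.7e-04), with its other probe at 0.13 and −0.08, and the NIC call was lost under 5 of 12 alternatives. In NIC the co-chaperone ligase Stub1 was higher by 0.61 ± 0.12 (adjusted p = 0.049), a call lost under 10 of 13 alternatives. Stub1 was also called higher in KI, by 0.45 ± 0.12 (adjusted p = 0.0188). In KI the phosphatase Ptpn12 (1.40 ± 0.37) and Socs5 (1.22 ± 0.30), whose product lowers Egfr levels, were higher, though without normal gland 2 neither was called (0.72, adjusted p = 0.130, and 0.88, adjusted p = 0.117). In NIC against normal, Ptpn12 read 0.67 and Socs5 −0.04, neither called. Socs5 was also higher in KI than in NIC by 1.25 ± 0.30 (adjusted p = 0.0499), a call lost under 8 of 21 alternatives.

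The genes whose pattern over the 9 RNA samples was most like that of each receptor's brightest probe were found by Pearson's r among 14458 genes with a signal above the median. They are a description, since the samples fall into 3 groups and 2 tables, and most genes that separate tumour from gland score high. For Erbb3 they were Prss16 (r = 0.996), Evpl, Camsap3, Dcaf4 and Atp2c2 (0.990). For Erbb2 they were Tuba4a (r = 0.993), Marf1, Tnfrsf12a, Leprotl1 and Camkk2 (0.982). For Erbb4 they were Slx1b (r = 0.965), Fam166c, Sema4d, Dolpp1 and Tmem179b (0.953), and for Egfr Prss36 (r = 0.950), Fahd2a, Klhl17, Erlec1 and Bloc1s5 (0.938). No receptor was among the 5 of another.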

How the data were processed

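Per the labels, RNA was extracted with a column kit, amplified by a single round of T7 transcription and coupled to Cy3 or Cy5. The deposited value tables hold log2 ratios, and the submitters' processing notes name RMA without a role. KI scanner files hold intensity values and a log10 ratio written by Agilent Feature Extraction, per the file headers. No source used here records the authors' other steps. Each KI column correlated with its scanner log ratio at r = 0.941 to 0.953 once turned to sample over reference, and the normal and NIC table was taken to have the same direction and spot layout. Column medians lay between −0.0099 and 0.0261. Interquartile ranges were 0.422 to 0.562 for KI and 0.514 to 0.970 for the others. On several KI arrays the labelling protocol names the opposite dyes from the label field, which was followed.

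The 2256 control spots were left out and the spots of a probe were averaged. Probes were named through a RefSeq table (GRCm38.p6) by accession (20716), symbol (5039) or older symbol (5279), and 10140 kept the file's name. Dye pairs were averaged per RNA, and limma 3.58.1 in R 4.3.3 was run on all 41174 probes, NIC against normal on its own 4 RNA samples and the KI comparisons in 1 fit of all 9. Precision is limited by how few RNA samples there are. Named were all member probes, up to 4 called genes with the largest differences from each pathway list and comparison by their brightest probe on the KI arrays, and 5 genes of like pattern per receptor. Members and lists were chosen with earlier results of these data known. Alternatives covered dye, replicate unit, scaling, samples fitted, probes per gene, dim probes, scanner values, extraction day and each RNA left out.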

Additional observations from a re-analysis of the deposited data

Results flagged for a closer look

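A total of 7 member probes differed between the tumour kinds, KI against NIC, by limma's test of that difference, all lower in KI, where 3.97% of all probes were called lower. The count was 2 to 5 with 1 RNA left out. For Egfr they were A_51_P392242 (−0.93) and A_52_P56471 (−0.97), the latter lost under 12 of 19 alternatives. For Erbb3 they were A_52_P133607 (−0.42), A_51_P342050 (−0.64) and A_51_P488243 (−0.59), lost under 8, 5 and 1 of 18. For Erbb4 they were A_52_P608535 (−0.40) and A_52_P256090 (−0.31), lost under 13 and 9 of 18, and the sign of A_52_P256090 turned under 1 more. The KI arrays lie in a table and on a platform record of their own. Of the 18 member probes, 0 had a KI tumour far from the other 4 by Dixon's criterion at the 95% level, and groups of 2 were not tested.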

How the results depend on the processing

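Of the brightest probes' results, 192 of 220 alternatives kept direction and side of the threshold, and for the other member probes 541 of 662 did. The 30 results for pathway genes never reversed and lost the call in 65 of 545. They were picked as called genes with large differences, so their share does not compare with that of the member probes. Erbb2 and Erbb3 in KI against normal kept their call throughout, but Erbb3 fell from 1.55 on its brightest probe to 0.33 as the mean of its probes. The cause of the changes below was not tested unless the setting itself uses fewer samples or probes.

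NIC against normal gave 4 called member probes, and 7 with all arrays and the RNA as a random block, 9 with all 9 RNA samples fitted, and 0 to 2 with 1 RNA left out. Over all probes the count of 7594 became 15384, 15060 and 0 to 5051, and 2905 with Cy3 alone. Erbb4 was called with all 9 samples fitted (0.41, adjusted p = 0.0138). As the mean of its probes Egfr was 0.063, and Erbb3 was 0.84 that way. With 1 RNA left out Egfr ran from −0.83 to 0.15 (reversed without normal gland 2), Erbb2 from 1.58 to 2.00 and Erbb3 from 1.61 to 2.09. The Erbb3 probe AF059175 turned to 0.15 with Cy3 alone, 0.128 scaled to 1 spread and 0.073 quantile normalized, and ran from −0.19 to 0.13 with 1 RNA left out.

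KI against normal gave 8 called member probes, and 5 among probes above the median signal and 5 without the 2 arrays of the smaller extraction day. For Egfr the call was lost with Cy3 alone (−1.14), scaling (−1.12), quantile normalization (−1.31), only the compared groups fitted (−1.20), the mean of its probes (−0.44) and without the smaller day (−1.19), and the value ran from −1.69 to −0.71 with 1 RNA left out. Erbb4 turned to −0.017 with Cy5 alone and, called, to −0.20 as the mean of its probes (adjusted p = 0.0225). L47241 turned to 0.035 with Cy5 alone, 0.026 scaled, 0.018 quantile normalized, 0.010 from scanner intensities and 0.39 from Agilent's ratio. The Erbb3 probe A_51_P342050 was −0.015 with Cy3 alone, and the Egfr probe A_52_P56471 ran from −0.27 to 0.046 with 1 RNA left out. The share of calls that were higher was 47.5%, and 59.1% among brighter probes, where the median of all probes was 0.12. Scaling took the 17391 calls over all probes to 11239.

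KI against NIC gave 7 called member probes, and 3 with Cy5 alone, 4 quantile normalized, 2 among brighter probes, 4 from Agilent's ratio, 3 without the smaller day and 2 to 5 with 1 RNA left out. Over all probes the count of 2878 became 6073 with the random block, 6027 from scanner intensities, 1561 quantile normalized and 821 without NIC pool 1, and its higher share of 43.3% became 30.3% quantile normalized, 29.5% without NIC pool 1 and 22.0% without NIC pool 2. Egfr was called with the random block (−0.87, adjusted p = 0.0499). Erbb3 was 0.071 quantile normalized, and as means of probes Erbb3 (−0.52) and Erbb4 (−0.30) were called. Erbb2 ran from −0.082 (without NIC pool 1) to 0.34 with 1 RNA left out. AK033431 turned to 0.14 from scanner intensities and 0.040 from Agilent's ratio, which also turned L47240 (0.19) and L47241 (0.11). With Cy3 alone AK049452 was 0.052 and ENSMUST00000050921 was 0.079. With 1 RNA left out AK033431 ran from −0.33 to 0.22, A_52_P674338 from −0.51 to 0.11, ENSMUST00000050921 from −0.078 to 0.012 and AK049452 from −0.060 to 0.010.

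No paired analysis was possible because the labels give the groups no shared replicate numbers. With 1 RNA left out of a group of 2, the lone sample is assumed to vary like the other groups. Signal over background limits L47240, L47241 and AK049452, which fell short of it in a channel on some KI arrays.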

Other observations

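A further array probe, named by a transcript cluster and described as similar to a rat erbB-3 sequence, is not among the 18 and was not used here. Genes that the pathway rule does not reach were called as well. The EGF family ligand Btc was lower in NIC than in normal (difference −0.97 ± 0.14, adjusted p = 0.0322), with its other probe at 0.92. Lrig1, a transmembrane protein that lowers ErbB receptor levels, was higher in KI by 0.86 ± 0.25 (adjusted p = 0.0265). Rnf41, the ubiquitin ligase that turns over Erbb3, was higher in KI by 0.86 ± 0.23 (adjusted p = 0.02). Erbin, which binds Erbb2, was higher in KI by 0.93 ± 0.31 (adjusted p = 0.0452), while its other 4 probes ran from −0.08 to 3.09. In NIC against normal, Lrig1 read 0.61, Rnf41 0.12 and Erbin 1.42, and Btc read −0.54 in KI, none called. The mucin Muc4, which binds Erbb2, was higher in KI than in NIC by 4.23 on its brightest probe, without passing the threshold (adjusted p = 0.055). Against normal that probe read 1.92 in KI and −2.30 in NIC, neither called. The other 5 Muc4 probes ran from −0.36 to 1.88 in KI and from −1.75 to 0.04 in NIC against normal. These genes are named after their values were seen.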
